A study of Mus musculus with 4 samples.

Results

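Ephrins, semaphorins and their receptors are the cell-surface and secreted cues first known for steering growing axons, and mammary epithelial and carcinoma cells carry many of them. Ephrins, anchored to the membrane of one cell by a lipid (class A) or a transmembrane domain (class B), bind Eph receptor tyrosine kinases on a neighbouring cell, and signals run into both cells. Semaphorins bind plexins, whose cytoplasmic part acts on small GTPases and so on adhesion and the cytoskeleton; most secreted class 3 semaphorins bind through the co-receptors neuropilin-1 and neuropilin-2.

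The guidance genes described here are all genes on the array whose annotated symbol begins with Efn, Sema or Plxn, is Epha or Ephb with a number, or is Nrp1 or Nrp2. The rule used names, not measured values. It found 53 of the 18193 genes that had a probe set with a single symbol: 28 ligands (5 ephrin-A, 3 ephrin-B and 20 semaphorin genes) and 25 receptors (9 Epha, 4 Ephb, 10 Plxn and 2 Nrp symbols). One of the Plxn symbols, Plxna4os1, is an opposite-strand transcript of Plxna4 and not a receptor.

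The cells were 4T1, a line from a mouse mammary carcinoma, and their RNA was hybridised to one-colour Affymetrix arrays. There were 2 arrays of CD44v8-10-positive cells and 2 of CD44v8-10-negative cells; CD44v8-10 is a splice form of the adhesion receptor CD44 that carries variant exons. All cells were grown in the same serum-containing medium in normoxia, carried no other labelled genotype or treatment, and were picked by hand under a dissecting microscope. The labels do not say whether the 2 arrays of a group came from separate cultures, so p-values reflect only the spread of these arrays, possibly technical, and a change in the mix of cells cannot be told apart from a change in mRNA per cell.

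The deposited arrays differed in brightness, with trimmed means from 196 to 345, and signals below are after quantile normalization. Across the 11956 genes above a filter on dim signal, the correlation between arrays ran from 0.968 to 0.985, and its 3 lowest values, 0.968, 0.969 and 0.972, were the 3 pairs that included positive replicate 2. The largest difference in the series, Esrp1, a splicing regulator of epithelial cells, differed by a log2 value of 4.48 (adjusted p 1.03e-05 by limma). The 5 epithelial markers were all above the filter on every array (Krt8 7719 to 8829). Of these, Epcam was higher in positive cells, with 2309 and 2479 on the positive arrays against 940.2 and 930.2 on the negative ones (log2 1.34; limma adjusted p 0.0118). Krt19 was also apart, with 884 and 958 against 622 and 609 (0.57; limma, unadjusted p 0.0142, adjusted p 0.985), and Krt8, Krt18 and Cdh1 overlapped. The part of these differences in the values below was not tested. The 5 endothelial markers and 2 of 3 lymphocyte markers were below the filter, as were 2 of 4 neuronal and Schwann cell markers and 2 of 5 fibroblast markers. All 5 macrophage markers were above it, with summed signals of 491 and 599.6 on the positive arrays against 419 and 389 on the negative ones. Cd14, Csf1r, Adgre1 and Cd68 were higher without overlap, with log2 values of 0.37, 0.51, 0.51 and 0.34, and Laptm5 overlapped (-0.0057). Of all genes tested 18.5% were higher without overlap. None of the 5 had an unadjusted p under 0.05 by limma. Of the fibroblast markers Pdgfra was lower, with 47.0 and 33.6 against 108 and 76.6 (limma, unadjusted p 0.0111, adjusted p 0.980). Col1a2 and Pdpn had log2 values of 0.04 and 0.37. The summed endothelial signals were dim, at 86.6 and 91.6 against 41.8 and 45.65. Some semaphorins and plexins are also made by myeloid cells. The part of myeloid or other such cells in the values below was not tested.

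None of the guidance genes differed between CD44v8-10-positive and CD44v8-10-negative cells at an adjusted p of 0.05. Of the 53 genes, 34 were above the filter and tested, 19 ligands and 15 receptors, and 0 passed (limma, two-sided, Benjamini-Hochberg over 11956 genes; lowest adjusted p of a guidance gene 0.985), where 0.0753% of all genes did. At an unadjusted p under 0.05 by limma 2 guidance genes were higher in positive cells, the ligand Sema3f and the receptor Plxnb1, against 2.68% of all genes, and 1 was lower, the receptor Epha4, against 1.76%. Together these 3 are 3 of 34 genes, where 4.45% of all genes had such a p. The groups did not overlap in 11 guidance genes, 5 higher and 6 lower, and in 32.3% of all genes.

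The intervals give the size of difference, on the log2(signal + 16) scale, that these arrays could still hold. In 20 of the 34 genes the 95% interval lay inside a 2-fold change in either direction on that scale. In 14 it reached past it, and among all genes tested 76.7% lay inside. The scale understates differences of dim genes, so for them such an interval does not bound the fold in signal. The standard error of the log2 fold change ran from 0.19 for Efnb2 to 0.74 for Sema6c, with a median of 0.28, against 0.24 for all genes. All standard errors and intervals here are limma ones, in which each gene's variance is drawn towards that of genes of like signal. For genes whose own arrays lay far apart they are narrower than those arrays alone would give. With no filter the standard error of Sema6c was 0.98. The median log2 fold change was -0.0020 over ligands and 0.29 over receptors, beside 0.03 over all genes tested; without positive replicate 2 the receptor median was 0.0064, and without negative replicate 1 it was 0.03. The receptor median was also lower with less specific probe sets left out (0.08), the mean of probe sets (0.08), no scaling (0.07) and arrays centred on their medians (0.15). Of the ligands 9 lay above 0 and 10 below, and of the receptors 9 above and 6 below.

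**Figure D1:**
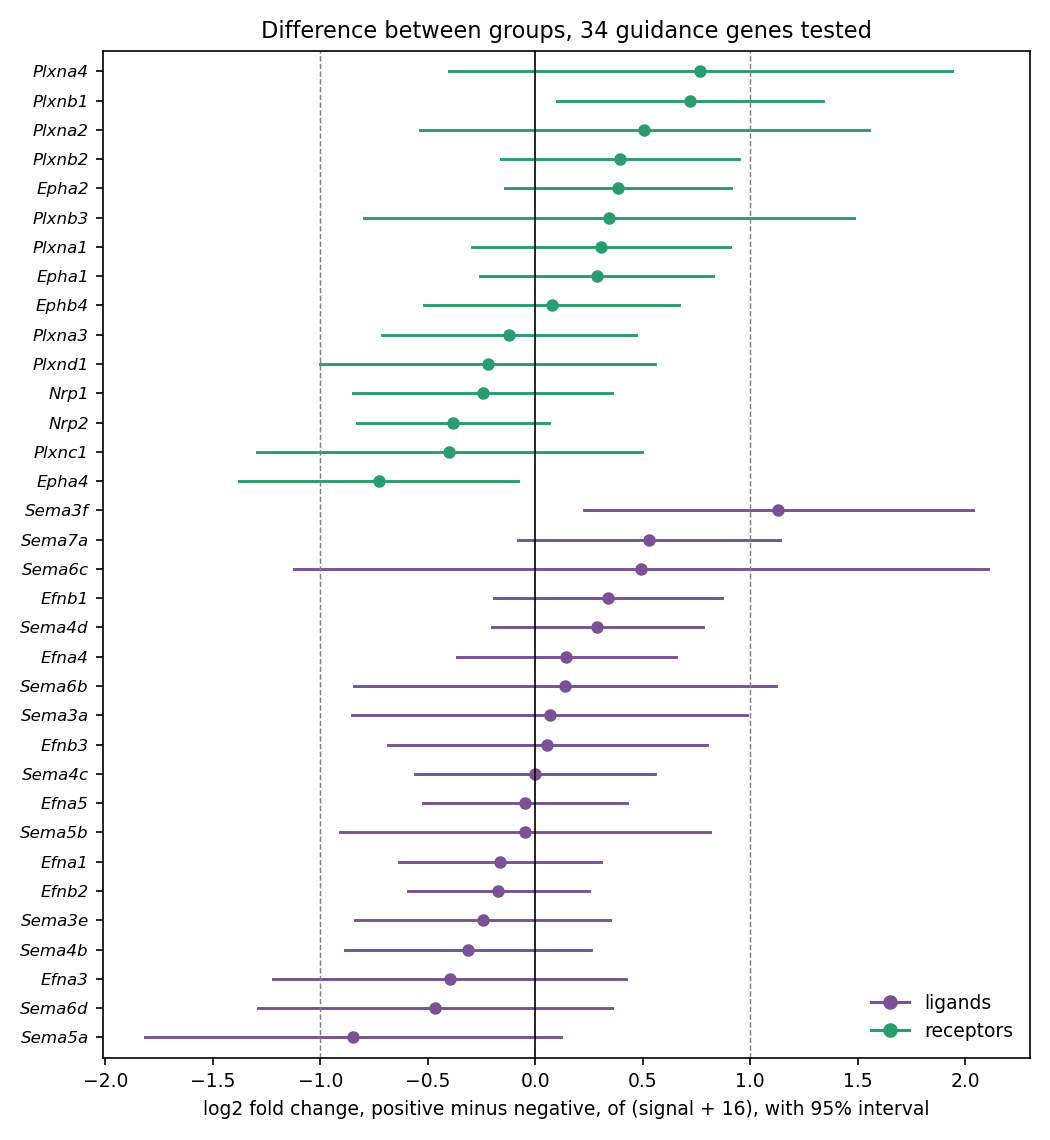
Log2 fold change (positive minus negative, on the log2(signal + 16) scale, x axis) of the 34 guidance genes tested, with 95% intervals as bars; receptors are at the top and ligands at the bottom, each in order of value, and dashed lines mark 2-fold. The intervals of Sema3f, Plxnb1 and Epha4 leave out 0, and that of Sema6c runs from -1.12 to 2.10.

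Among the ligands, 7 ephrins were tested, and in 6 of them the 95% interval lay inside a 2-fold change. Efnb2, a transmembrane ephrin best known as the partner of Ephb4 in vessels, had signals of 1210 and 1021 on the positive arrays against 1191 and 1319 on the negative ones. The groups overlapped, and the log2 fold change was -0.17 ± 0.19 (SE, n = 2 arrays per group), with an interval from -0.59 to 0.25 that leaves out a 2-fold change. Its 4 probe sets gave -0.21 to -0.06. Efna1, a lipid-anchored ligand of Epha2, had 456 and 373 on the positive arrays against 461 and 467 on the negative ones, so that positive replicate 2 stood lowest. Its log2 fold change was -0.16 ± 0.22.

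None of the other 5 ephrins tested had an unadjusted p under 0.05 by limma. The log2 fold change of Efna5 was -0.05 (interval -0.52 to 0.43), Efna4 0.14 (-0.37 to 0.66) and Efnb3 0.06 (-0.69 to 0.80). Efna3, the lowest of the ephrins at -0.40 ± 0.38, had overlapping signals of 22.4 and 36.4 on the positive arrays against 56.1 and 32.4 on the negative ones. A second Efna3 probe set, below the filter, gave 0.36, also with overlapping groups. Efnb1 had 0.34 ± 0.24 by its brightest probe set, with signals of 224 and 299 against 177 and 229. The 2 further probe sets of the gene gave -0.22 and -0.48, so its direction depends on the probe set.

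**Figure D2:**
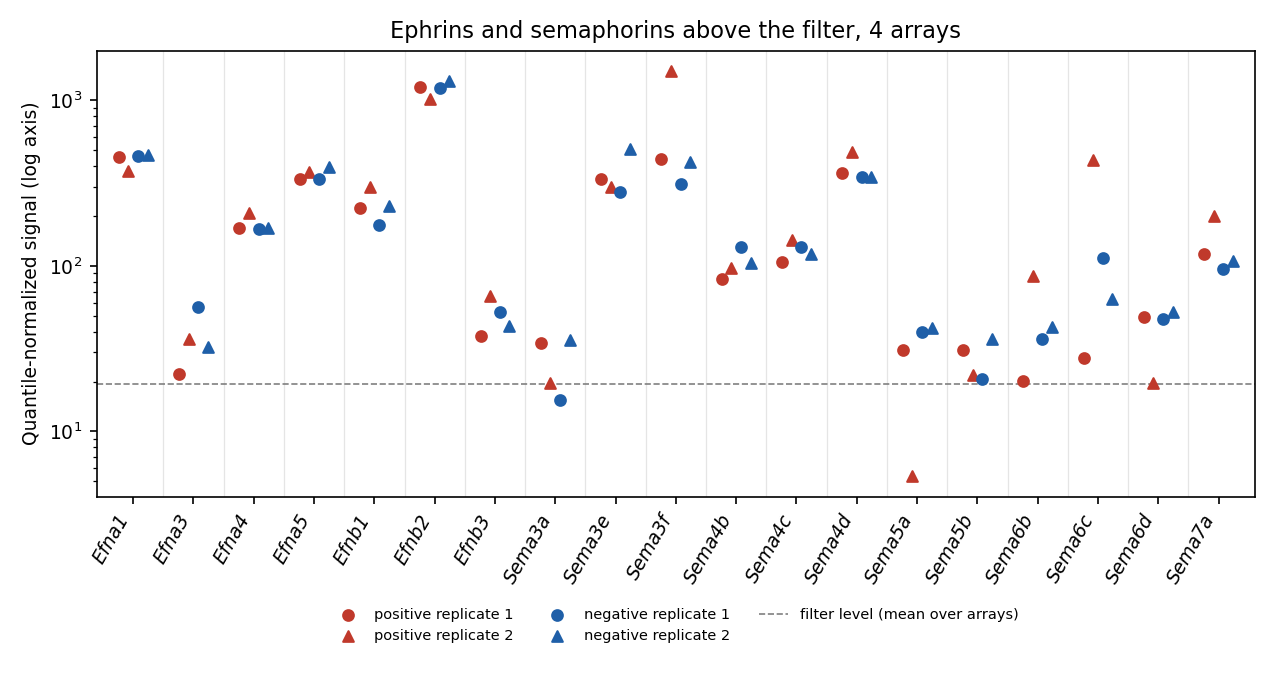
Quantile-normalized signal (log axis) of the brightest probe set of each of the 19 ephrin and semaphorin genes tested, in the positive (red) and negative (blue) arrays, with circles for replicate 1 and triangles for replicate 2; the dashed line is the filter level of 19.4. Sema3f and Sema6c are far higher in positive replicate 2 (1506 and 438.5) than in positive replicate 1 (441 and 27.9).

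Among the secreted class 3 semaphorins, Sema3f, which signals through Nrp2 and is studied as a restraint on tumour vessels, had the largest fold change of any guidance gene tested. Its signals were 441 and 1506 in the positive arrays and 312 and 426 in the negative arrays. Positive replicate 2 stood far above the other arrays, and positive replicate 1 lay just above the higher negative array. The means were 974 ± 753 and 369 ± 80.3 (SD, n = 2 each), and the log2 fold change was 1.13 ± 0.42 (limma, unadjusted p 0.0185, adjusted p 0.985).

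The size of that difference depended on the probe set and on positive replicate 2, and its p also on the variance model. At the same log2 fold change the unadjusted p by limma was 0.0653 with a robust prior and 0.0719 with no intensity trend. The probe set tested is of the less specific kind, whose name marks probes that may match other transcripts. With such probe sets left out the log2 fold change was 0.26 (limma, unadjusted p 0.426), and with the mean of probe sets it was 0.59 (unadjusted p 0.277). Without positive replicate 2 the log2 fold change of Sema3f was 0.26 (limma adjusted p 1.00), and without positive replicate 1 it was 1.98 and passed the threshold (limma adjusted p 0.0312), the single guidance gene to do so in any alternative run. The 2 further probe sets of Sema3f above the filter had 0.26 and 0.36. The second of these had signals of 9.75 and 155.7 on the positive arrays against 6.33 and 103.6 on the negative ones, so that on it both replicate 2 arrays were high.

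Sema3e, the ligand of Plxnd1, was measured by 4 probe sets above the filter, and all 4 were lower on average in the positive arrays, by log2 values of -0.24 to -1.08. The brightest had overlapping signals of 336 and 301 on the positive arrays against 280 and 512 on the negative ones. The probe set with -1.08 ± 0.37 had 142 and 58.8 on the positive arrays against 275 and 167 on the negative ones, with no overlap (limma over all probe sets, unadjusted p 0.0151, adjusted p 0.959). Sema3a, a class 3 ligand of Nrp1, was near the filter level, with 34.1 and 19.6 against 15.4 and 35.7 on its brightest probe set. A Sema3a probe set below the filter had 3.78 and 19.3 against 38.8 and 24.1, without overlap (-0.83). The dimmest gave -0.17, with overlap.

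Sema3c, another neuropilin ligand, did not enter the tests because its mean signal was below the filter, but its positive and negative arrays were apart on both of its probe sets. The brighter gave 37.6 and 43.5 on the positive arrays against 7.58 and 1.65 on the negative ones, and the dimmer 23.5 and 32.5 against 3.33 and 8.33. With no filter its log2 fold change was 1.47 ± 0.32 (limma, unadjusted p 0.00255, adjusted p 0.963 over 18193 genes), the smallest unadjusted p of the 53 guidance genes. Both negative arrays lay under the filter level, so the fold is no exact size.

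Of the membrane-bound semaphorins of classes 4 and 7 that were tested, none had an unadjusted p under 0.05 by limma. Sema4d, the ligand of Plxnb1, had 367 and 489 in the positive arrays and 344 in both negative arrays; the groups did not overlap and the log2 fold change was 0.29 ± 0.23. A second Sema4d probe set above the filter gave -0.09. Sema4b had -0.31 ± 0.26 and Sema4c, a ligand of Plxnb2, -0.0020 ± 0.26 (interval -0.56 to 0.56). Sema7a, a lipid-anchored semaphorin that binds integrins and Plxnc1, had 118 and 199 on the positive arrays against 96.5 and 107.5 on the negative ones. Its groups did not overlap, and its log2 fold change was 0.53 ± 0.28 (limma, unadjusted p 0.0830, adjusted p 0.985), or 0.19 without positive replicate 2 and 0.86 without positive replicate 1.

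Sema5a, a transmembrane semaphorin of class 5, had a log2 fold change of -0.85 ± 0.44 (limma, unadjusted p 0.0800, adjusted p 0.985). Its signals were 31.2 and 5.35 on the positive arrays against 40.1 and 42.1 on the negative ones, with positive replicate 2 far below the others. The mean of the positive arrays was under the filter level, so the fold is no exact size; it was -0.29 without positive replicate 2. The 2 other probe sets above the filter were also lower, by -0.27 and -1.31. On the latter the signals were 3.18 and 11.6 on the positive arrays against 28.9 and 56.5 on the negative ones. Both positive arrays were under the filter level there, so that probe set passed the filter through the negative arrays and its difference is no exact size.

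Within class 6 the single arrays were far apart. Sema6c had 27.9 and 438.5 on the positive arrays against 111.5 and 63.2 on the negative ones, so that the highest and the lowest signal were both from positive cells. Its log2 fold change of 0.49 ± 0.74 became -1.25 without positive replicate 2, and its other probe sets gave -1.18 and -0.57. Sema6d had 49.0 and 19.6 against 48.1 and 52.6, a log2 fold change of -0.46 ± 0.38. Its 2 further probe sets above the filter gave 0.34 and 0.62, and a dimmer one below the filter gave -0.67. Sema6b, at 0.14 ± 0.45, was 20.1 and 86.4 on the positive arrays against 36 and 42.5 on the negative ones.

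Among the receptors, the 3 B-class plexins had log2 fold changes above 0 by their brightest probe sets. Plxnb1, the receptor of Sema4d, had signals of 186 and 296 on the positive arrays against 110 and 168 on the negative ones, and the groups did not overlap. Its means were 241 ± 78.3 and 139 ± 41.2 (SD, n = 2 each) and its log2 fold change was 0.72 ± 0.28 (limma, unadjusted p 0.0257, adjusted p 0.985). Its second probe set gave 0.25, with overlapping signals of 126 and 196 against 104 and 161. Without positive replicate 2 the log2 fold change was 0.41 (limma adjusted p 1.00).

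Plxnb2, a receptor of class 4 semaphorins that is widely made in epithelia, had 747 and 1215 on the positive arrays against 619 and 839.9 on the negative ones. The groups overlapped and the log2 fold change was 0.39 ± 0.26 (interval -0.16 to 0.95). Without positive replicate 2 it was 0.05, and without positive replicate 1 it was 0.73. Plxnb3 gave 0.34 ± 0.52 by its brightest probe set and -0.46 by its second.

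The A-class plexins, which pair with neuropilins for class 3 ligands and bind class 6 ligands directly, were not alike in precision: the intervals of Plxna2 and Plxna4 reached past a 2-fold change, and those of Plxna1 and Plxna3 lay inside it. Plxna4 had the highest log2 fold change of the receptors, 0.77 ± 0.54, from signals of 27.3 and 161 on the positive arrays against 23.9 and 50.2 on the negative ones. Without positive replicate 2 it was -0.26. Plxna2, at 0.51 ± 0.48, showed the same split, with 16.8 and 66.4 against 29.9 and 13.2. Below the filter, the second probe set of Plxna4 gave -0.65, and those of Plxna2 gave -0.65, 0.40 and 0.07. Plxna1 (0.31 ± 0.28) and Plxna3 (-0.12 ± 0.27) each had a second probe set of the opposite sign. Plxnc1, the receptor of Sema7a, had 12.1 and 24.5 against 32.1 and 25.2, without overlap, and -0.40 ± 0.41. The mean of its positive arrays was under the filter level. The Plxnc1 probe sets below the filter gave 0.42, -0.28, 0.16, 0.04 and 0.12, all with overlapping groups, so its direction depends on the probe set. Plxnd1, the receptor of Sema3e, had -0.22 ± 0.36.

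Both neuropilins had log2 fold changes below 0. Nrp2, co-receptor of Sema3f and of some vascular growth factors, had 849 and 990 on the positive arrays against 1063 and 1356 on the negative ones, so that both positive arrays were the lower. Its means were 919.6 ± 99.5 and 1210 ± 207 (SD, n = 2 each) and its log2 fold change was -0.38 ± 0.21 (limma, unadjusted p 0.0872, adjusted p 0.985). All 4 of its probe sets were lower, from -0.09 to -0.69. The last of these had 195 and 247 on the positive arrays against 384 and 343 on the negative ones (limma over all probe sets, unadjusted p 0.0159, adjusted p 0.959). Nrp1 had 429 and 343 against 337 and 618, overlapping groups and -0.24 ± 0.28, and its 4 probe sets ranged from -0.29 to 0.11.

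Of the Eph receptors above the filter, Epha4, which binds ephrins of both classes, was the one with an unadjusted p under 0.05 by limma. Its signals were 92.2 and 52.6 on the positive arrays against 112 and 143 on the negative ones, with no overlap. The means were 72.4 ± 28.0 and 127 ± 21.7 (SD, n = 2 each) and the log2 fold change was -0.73 ± 0.30 (limma, unadjusted p 0.0310, adjusted p 0.985). The 2 further probe sets of the gene above the filter gave -0.45 and -0.17, both with overlapping groups. Its probe sets below the filter went the other way, with 0.38 and 0.01, also with overlapping groups. Without positive replicate 2 the log2 fold change of Epha4 was -0.40.

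Epha2, the main Eph receptor of many carcinomas and a partner of Efna1, had 821 and 1316 on the positive arrays against 721 and 869 on the negative ones. The groups overlapped, and the log2 fold change was 0.39 ± 0.24 (interval -0.14 to 0.91). Without positive replicate 2 it was 0.05, and without positive replicate 1 it was 0.71. Epha1 had 0.29 ± 0.25, with all 3 of its probe sets between 0.24 and 0.59. Ephb4, the partner of Efnb2, had 0.08 ± 0.27, which was -0.30 without positive replicate 2 and -0.07 with arrays centred on their medians.

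**Figure D3:**
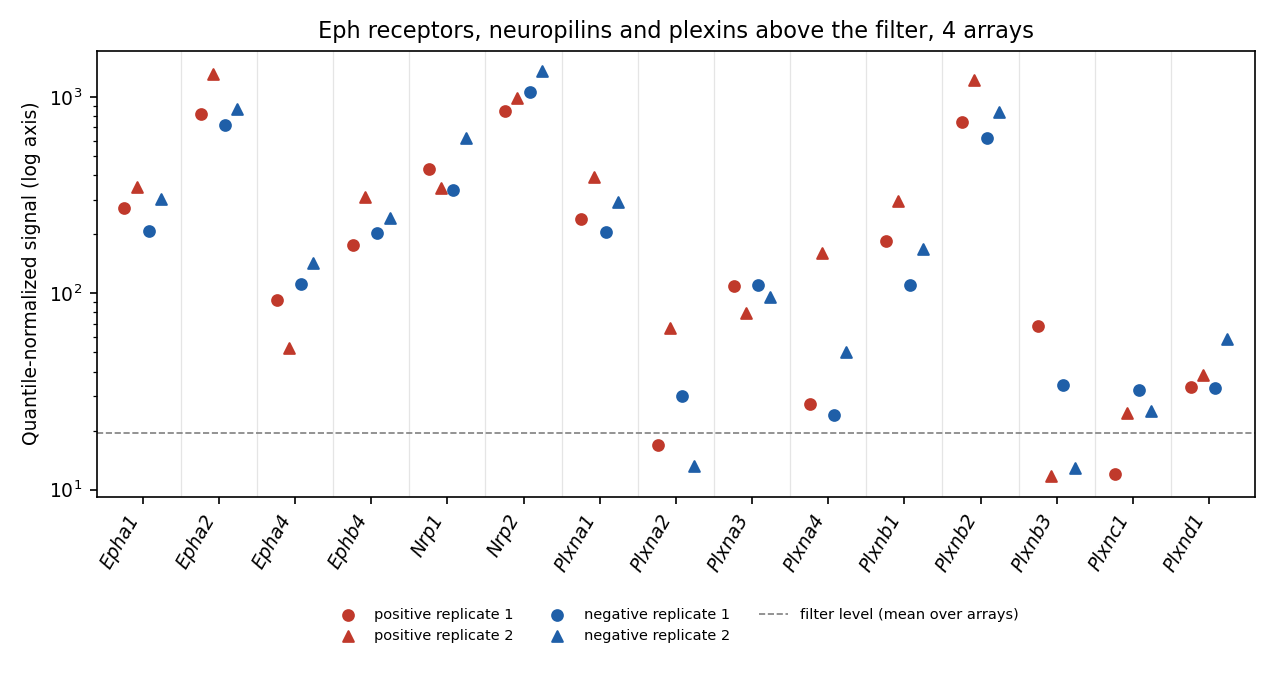
Quantile-normalized signal (log axis) of the brightest probe set of each of the 15 Eph receptor, neuropilin and plexin genes tested, in the positive (red) and negative (blue) arrays, with circles for replicate 1 and triangles for replicate 2; the dashed line is the filter level of 19.4. Plxnb1 has both positive arrays above both negative arrays, while Epha4, Nrp2 and Plxnc1 have both below.

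Of the 17 guidance genes with more than 1 probe set above the filter, 9 had probe sets of one sign. Those of Sema3f, Plxnb1 and Epha1 all lay above 0, and those of Efna1, Efnb2, Sema3e, Sema5a, Epha4 and Nrp2 all below. The other 8 genes were mixed. Tested one by one over 27022 probe sets, 0 of the 66 guidance probe sets above the filter passed an adjusted p of 0.05 by limma (background 0.0333%). At an unadjusted p under 0.05 there were 6 of them, 1 each of Sema3f, Plxnb1, Epha4, Nrp2, Sema3e and Sema5a (the Sema5a one being that with both positive arrays under the filter level), where 4.61% of all probe sets had such a p. Probe sets of a gene share their RNA and are not replicates.

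**Figure D4:**
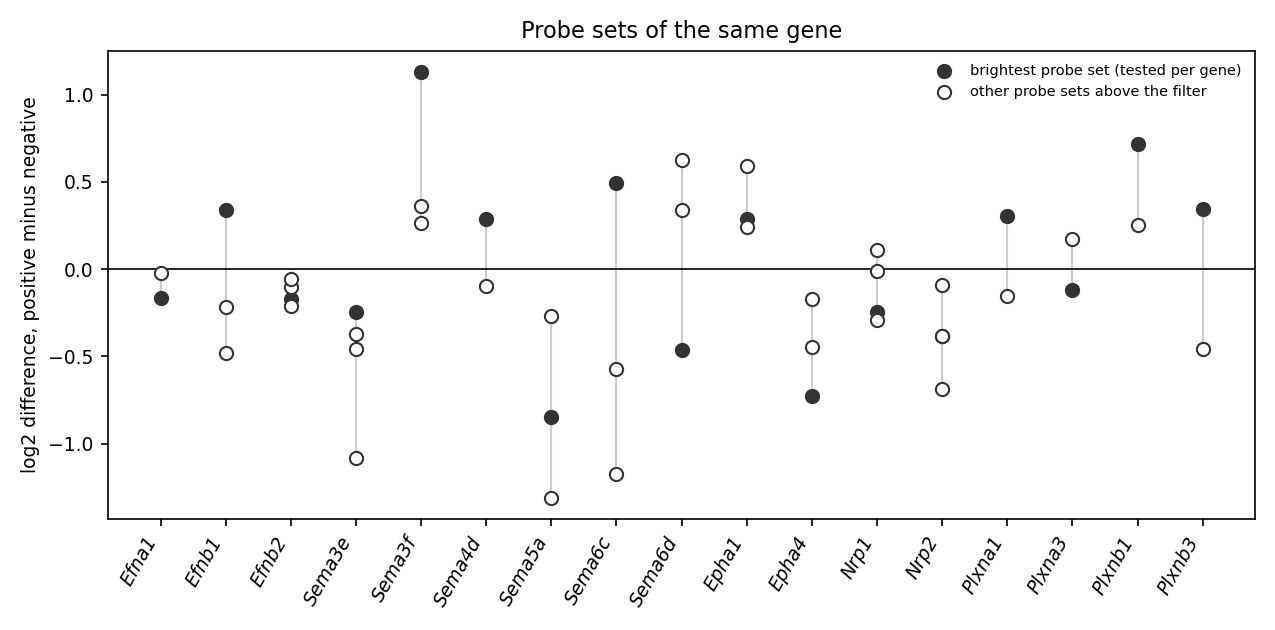
Log2 difference (positive minus negative, y axis) of every probe set above the filter, for the 17 guidance genes that have more than 1; filled points are the brightest probe set, which was tested per gene, and open points the others. The probe sets of Sema3e, Sema5a, Epha4 and Nrp2 lie below 0, while those of Sema6c run from -1.18 to 0.49.

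Differences between replicate arrays were large in these genes. The positive arrays were over 2-fold apart (on the signal + 16 scale) in 7 of the 34 genes and the negative arrays in 0. Such a share was not counted over all genes, and Plxna2, Plxnb3, Sema5a and Sema6b among the 7 were dim. The median gap was a log2 value of 0.51 between the positive and 0.32 between the negative arrays, beside 0.26 and 0.24 over all genes tested. Positive replicate 2 was the highest array in 17 of the 34 genes, or 50%, against 35.0% of all genes. Negative replicate 2 was highest in 12, or 35.3%, against 23.4% of all genes. Negative replicate 1 was the lowest in 15, or 44.1%, against 23.4%, and positive replicate 1 in 10, or 29.4%, against 18.4%. What set positive replicate 2 apart was not tested.

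**Figure D5:**
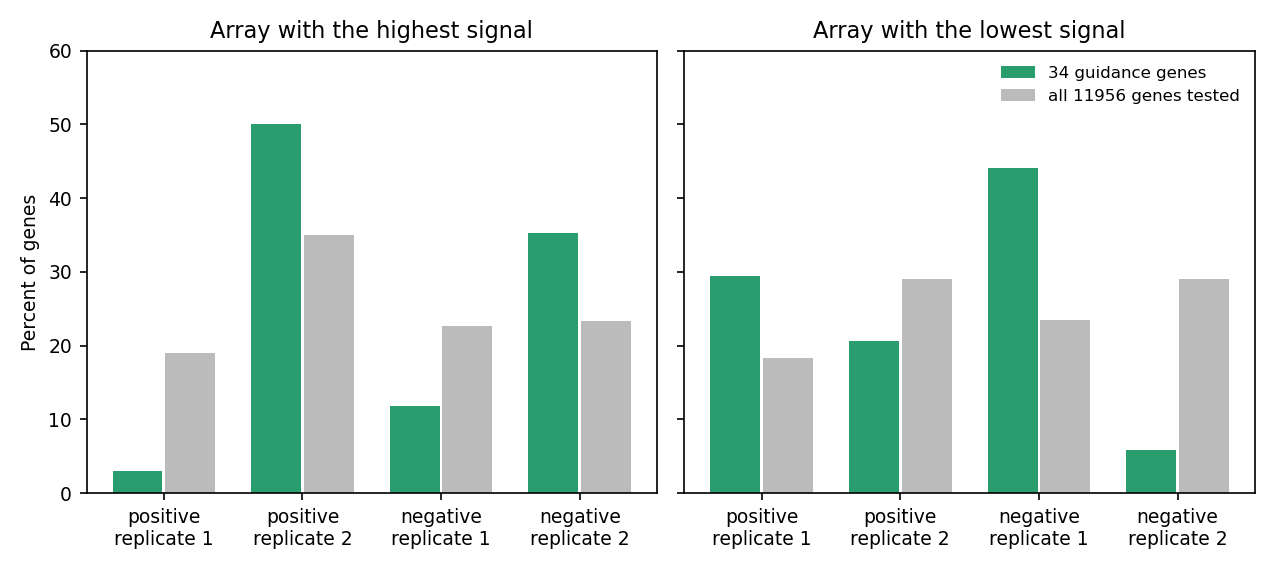
Percent of genes (y axis) in which each of the 4 arrays had the highest (left) or the lowest (right) normalized signal, for the 34 guidance genes (green) and all 11956 genes tested (grey). Positive replicate 2 was highest in 50% of guidance genes and negative replicate 1 lowest in 44.1%.

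The 19 genes below the filter were 9 ligands (Efna2, Sema3b, Sema3c, Sema3d, Sema3g, Sema4a, Sema4f, Sema4g and Sema6a), 9 Eph receptors (Epha3, Epha5, Epha6, Epha7, Epha8, Epha10, Ephb1, Ephb3 and Ephb6) and Plxna4os1. A dim probe set does not show that an mRNA is absent. The brightest probe sets of the 19 had signals from 0.6 to 46.3, and in 7 genes every array was under the filter level of 19.4. With no filter 3 guidance genes were higher and 1 lower at an unadjusted p under 0.05 by limma, where 2.45% and 2.00% of 18193 genes were, and 0 passed an adjusted p of 0.05 (background 0.0165%). In that fit Sema3f, Plxnb1 and Epha4 had unadjusted p of 0.0629, 0.0630 and 0.0817, so the 4 genes were other ones. Beside Sema3c these were Epha3, with 22.5 and 23.3 against 8.08 and 1.5, Sema4a, with 23.7 and 23.1 against 9.48 and 0.6, and, on the lower side, Efna2, with 9.63 and 3.33 against 28.2 and 39.2. The 3 further probe sets of Epha3 gave 0.33, -0.39 and -0.13, and the second of Sema4a 0.05. A second Efna2 probe set had overlapping signals of 6.25 and 35.8 against 36.7 and 3.50.

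Of 39 textbook pairs of a ligand and its receptor among these genes, both partners were above the filter in 23. Both had values above 0 in 6 pairs, both below 0 in 5, and opposite signs in 12. Sema4d and Plxnb1 were both above 0 (0.29 and 0.72), Sema3e and Plxnd1 both below (-0.24 and -0.22), and Efna3 and Epha4 both below (-0.40 and -0.73). Sema3f and Nrp2 were opposite (1.13 and -0.38), as were Sema7a and Plxnc1 (0.53 and -0.40). These signs are of the brightest probe set of each gene, and some other probe sets of Sema4d, Sema7a, Efna3, Epha4 and Plxnc1 went the other way. Pairs share genes and are not independent, and no gene in them passed an adjusted p of 0.05 by limma.

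Other genes of guidance signalling were looked at in 3 lists. Of 23 listed cues and receptors of other guidance families, 10 were below the filter. The 13 tested were netrin, repulsive guidance and FLRT cues and receptors, Draxin, Robo3 and Robo4, with no Slit ligand. Among them 0 passed and 1 was higher at an unadjusted p under 0.05 by limma. That gene was Ntn1, netrin-1, with 115 and 132 on the positive arrays against 67.3 and 63.2 on the negative ones. Its log2 fold change was 0.77 ± 0.27 (limma, unadjusted p 0.0127, adjusted p 0.985). Of 32 tested semaphorin co-receptors and signalling partners 0 passed. L1cam, an adhesion molecule that joins neuropilin-1 in the Sema3a receptor, had 164 and 152 against 90.0 and 67.4 (0.89 ± 0.26; limma, unadjusted p 0.00491, adjusted p 0.826). Dpysl2, the collapsin response mediator of Sema3a signalling, had 2023 and 1922 against 2343 and 2861 (-0.39 ± 0.18; limma, unadjusted p 0.0463, adjusted p 0.985). Of 36 tested partners of ephrins and Eph receptors 0 passed, and Pik3r1, a regulatory subunit of PI3 kinase, had an unadjusted p of 0.0258 by limma (adjusted p 0.985) with -0.61 ± 0.24. Of all genes tested 0.0753% passed, and 2.68% were higher and 1.76% lower at an unadjusted p under 0.05 by limma. The medians of the 3 lists were 0.26, -0.01 and -0.03.

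The start-site windows of the guidance genes were searched for CAGGTG, the E-box bound by the Zeb and Snail repressors of epithelial genes, on both strands (CACCTG on the other strand). RefSeq windows of GRCm38.p6, from 250 bases before to 50 after a start, were held for 46 of the 53 genes. The motif was in 5 of 40 windows (12.5%) of genes above the filter, in 2 of 20 (10.0%) of genes below it (Sema3d and Sema4f), in 18.4% of 12353 windows of all genes tested, and in 20.2% of all 32851 windows. A match is letters in a window and not a bound site. The 5 matches of tested genes are printed with up to 27 bases on each side, 5′ to 3′ on the gene's strand, with the motif in capitals, because for these genes the log2 fold change can be set beside the motif:
Efnb2 (chr8:8661377-8661436, - strand): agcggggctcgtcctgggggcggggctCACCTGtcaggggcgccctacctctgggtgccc
Epha1 (chr6:42373307-42373366, - strand): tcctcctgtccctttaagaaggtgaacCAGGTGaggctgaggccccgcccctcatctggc
Plxnb2 (chr15:89174120-89174179, - strand): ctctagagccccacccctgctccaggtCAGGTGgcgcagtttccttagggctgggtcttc
Sema4c (chr1:36558473-36558532, - strand): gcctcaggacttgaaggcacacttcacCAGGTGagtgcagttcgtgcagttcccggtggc
Sema6d (chr2:124653364-124653423, + strand): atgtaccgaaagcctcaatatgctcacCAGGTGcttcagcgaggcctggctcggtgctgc

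In these genes the log2 fold changes were 0.29 (Epha1), 0.39 (Plxnb2), -0.0020 (Sema4c), -0.17 (Efnb2) and -0.46 (Sema6d), on both sides of 0. The motif ended 65 bases before the start in Epha1 and 118 to 195 bases before it in the others. The windows of Sema3c, Plxnb1, Epha4 and Nrp2 did not hold these letters. The median GC content was 64% over windows of guidance genes above the filter and 63.0% over those below it, beside 60.7% over windows of all genes tested.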

How the data were processed

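The deposited values were linear intensities, 1 per probe set and array, for 45101 probe sets; per the submitters' processing notes GCOS was used, without a role, and how probe sets were summarised and scaled is not given in the sources used here. Names came from the 2016 platform annotation, and only probe sets with a single symbol were used. Arrays were quantile normalized, transformed as log2(value + 16), and 64 control probe sets were removed. Probe sets with a mean below the 40th percentile (log2 value 5.15, signal 19.4) were left out, and the brightest probe set per gene was kept, which gave 11956 genes. Groups were compared with limma 3.58.1 in R 4.3.3 (lmFit and a trended eBayes with 12.2 degrees of freedom; two-sided p-values, adjusted by Benjamini-Hochberg across the 11956 genes and read at 0.05); the code was tested on simulated data. Fold changes on the log2(value + 16) scale understate differences of dim genes, and signals of different probe sets were not set against each other. The number of arrays, 2 per group, limits the precision. Per-array values were given for genes with a p under 0.05, the 3 highest and 3 lowest log2 fold changes and 4 brightest ligands and receptors, and genes without overlap and a change of at least 0.5; Sema3c, other dim genes, other probe sets, and the further tested genes shown by array were chosen after their values were seen. The members, lists and pairs were chosen with earlier results of these data known. Alternatives were the scaling, the pseudocount, the filter, the choice of probe set, the variance model, the replicate block and leaving out each array. In each run the brightest probe set was picked anew where 1 per gene was kept. All 53 symbols matched the RefSeq gene table by gene number.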

Additional observations from a re-analysis of the deposited data

How the results depend on the processing

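Of the 34 guidance genes tested, 16 kept their direction in every alternative that gave a value for them and 18 did not; Efna4 changed sign only with median centring and no scaling, which moved the median of all genes by -0.096 and -0.18. The number called over all genes was 9, and 25 with median centring, 3 with no scaling between arrays, 3 with no filter and 2 with no intensity trend; 0 guidance genes were called in any of these by limma. With one array left out, a fit in which the lone array is assumed to vary like the other group, 6 to 16 genes were called over all genes, and 0 to 1 guidance genes (Sema3f). Guidance genes higher at an unadjusted p under 0.05 numbered 2, and 1 with median centring, one trimmed mean, less specific probe sets left out or a robust prior, 0 with no scaling, the mean of probe sets or no intensity trend, and 1 to 9 with one array left out. Over all genes such values were 2.68% in the main setting and 0.376% with no scaling; the 9 arose without positive replicate 1, where 5.85% of all genes were higher, and 1.54% were without positive replicate 2. Lower ones numbered 1, and 2 with median centring, 0 with no scaling, 4 with every probe set on its own (an alternative added after seeing the data), and 0 to 4 with one array left out; the 4 arose without negative replicate 1, where 2.77% of all genes were lower, beside 1.76% in the main setting.

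With the replicate block 18 genes were called over all genes, 0 guidance genes were, and 4 guidance genes were higher at an unadjusted p under 0.05 by limma (Sema3f, Plxnb1, Sema7a and Plxna4; lowest adjusted p 0.112), where 3.60% of all genes were higher. The correlation of same-numbered deviations was 0.12 across all genes and -0.09 across guidance genes; the labels give the numbers no shared day or culture.

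Sign changes were as follows. Efna4 was -0.0078 with median centring and -0.089 with no scaling, and Ephb4 -0.067 and -0.15. With no scaling Efnb3 was -0.078, Sema3a -0.019 and Sema6b -0.0091. Sema5b was 0.034 with one trimmed mean and Sema4c 0.00067 with a pseudocount of 64. With the mean of probe sets Efnb1 was -0.12, Plxna3 0.027, Plxnb3 -0.057, Sema6c -0.42 and Sema6d 0.17, and Plxnb3 was -0.46 with less specific probe sets left out. With one array left out the ranges were -0.17 to 0.070 (Efna5), -0.26 to 0.37 (Efnb3), -0.30 to 0.45 (Ephb4), -0.66 to 0.18 (Nrp1), -0.036 to 0.64 (Plxna1), -0.32 to 0.078 (Plxna3), -0.26 to 1.79 (Plxna4), -0.74 to 1.20 (Plxnb3), -0.53 to 0.075 (Plxnd1), -0.42 to 0.40 (Sema3a), -0.66 to 0.18 (Sema3e), -0.19 to 0.19 (Sema4c), -0.31 to 0.18 (Sema5b), -0.63 to 0.90 (Sema6b) and -1.25 to 2.16 (Sema6c). With an array left out, the filter and the brightest probe set of each gene were picked anew, so a range can mix probe sets. The causes were not tested. All other alternatives, pseudocounts of 1 and 64 and the filter at the 60th percentile among them, left the counts within 1.5 times; with no filter the guidance genes at an unadjusted p under 0.05 were Sema3c, Epha3, Sema4a and Efna2, none of which the main setting tested. The 2 arrays per group and dim signals limit what can be detected.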
